A study of Arabidopsis thaliana with 36 samples.

Results

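The change in root RNA between 2 and 8 hours after transfer to new plates was measured in Arabidopsis thaliana, ecotype Columbia. It was read from 24 of the 36 arrays of the series, which are all 12 arrays titled 8 hours and all 12 titled 2 hours. The remaining 12 arrays, taken at 2 days, gave a side value and helped to estimate the spread. Every sample was total RNA of roots from seedlings whose primary root had been cut and which carried a pair of main roots, each in its own compartment of a segmented plate. The plants were 12 to 14 days old at transfer. They had been raised with 0.5 mM ammonium succinate, 0.1 mM KNO3 and 3 mM sucrose, then kept on ammonium succinate as the nitrogen source, and all treatment plates held 0.3 mM sucrose. There were 4 treatments. In C.NO3 both compartments held 5 mM KNO3, and in C.KCl both held 5 mM KCl. Sp.NO3 and Sp.KCl are the KNO3 side and the KCl side of plates with 5 mM KNO3 on one side and 5 mM KCl on the other. Arrays of these 2 treatments may therefore share plants. The main fit took them as separate samples, and comparisons between the salts did not pair them. Each treatment had 3 biological repeats per time, with no label that ties a repeat to its own set of plants, so that p-values measure the spread between these samples. The change was taken within each treatment and averaged over the 4. Neither the number of plants per sample nor the clock hour of sampling is stated in the labels. Time after transfer and time of day therefore cannot be told apart.

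A root that is moved to fresh medium meets several shifts at once. Handling and wounding set off short-lived stress transcripts, new salts and a lower sugar supply alter transport and metabolism, and the circadian clock goes on cycling through the day. The clock is a loop of morning and evening genes that repress or promote each other, and it also runs in roots, where it sets daily rhythms in water uptake, growth and metabolism. Growth of root cells rests on wall-loosening proteins such as expansins and on xyloglucan endotransglucosylases, which cut and rejoin wall chains. Glycosyltransferases and glutathione transferases attach sugars or glutathione to hormones, phenolics and reactive compounds.

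Values are MAS5 signals of Affymetrix probe sets, scaled so that the trimmed mean of each array is 500. Changes are log2 differences of signal + 16, 8 hours minus 2 hours, which understate the change of dim genes, and errors are standard errors (SE) of a limma fit to all 36 arrays. Median signals ran from 205 to 222 at 2 hours and from 209 to 218 at 8 hours, and replicate arrays correlated at 0.961 to 0.987. The first principal component of the 24 arrays held 37.3% of the variance and separated the times completely. The second held 13.0% and ordered the repeats at 2 hours, with the 4 arrays of repeat 1 between 14.4 and 21.8 and those of repeat 3 between -27.5 and -11.2. Arrays of different treatments with the same repeat number and time thus deviated together, with mean correlations of 0.464, 0.284 and 0.432 at 2 hours and 0.209, 0.155 and 0.267 at 8 hours. For this reason counts are also given for 1 mean per repeat number and time, 3 values against 3. The 3′ to 5′ index, the mean log2 ratio of 3′ to 5′ control probe sets, averaged 0.889 ± 0.148 at 2 hours and 0.794 ± 0.127 at 8 hours (SD, 12 arrays each). Among the groups of 2 and 8 hours it was highest in C.KCl at 2 hours (1.07 ± 0.105, SD, n = 3). At 2 days the index averaged 1.15 ± 0.0833 (SD, 12 arrays) and median signals ran from 194 to 207. Signals given for 2 days were not adjusted for these differences. The root hair expansins EXPA7 and EXPA18 were measured on every array, summing to between 2017 and 2888 at 2 hours and between 1375 and 2131 at 8 hours. Of 15 shoot markers 3 were tested (RCA, LHCB4.1 and LHCB4.2), none was called, and their sum lay between 508 and 1253 at 2 hours and between 464 and 1131 at 8 hours. Fewer cells of a type and less RNA per cell cannot be told apart in these samples. The titles and treatment characteristics of the 12 KCl arrays at 2 and 8 hours contradict each other on the plate. The titles were followed. The mean over the 4 treatments does not depend on this, but every value given for C.KCl or Sp.KCl does, and by the characteristics these names would be exchanged. The comparison of split with uniform plates depends on it too.

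Over the 4 treatments, many transcripts moved by a little and few by much. Of 15922 probe sets tested, 7177 (45.1%) passed an adjusted p of 0.05, 3607 (22.7%) higher and 3570 (22.4%) lower at 8 hours. The median size of a called change was 0.32, and 5638 of the called changes (78.6%) were under 0.5. At least 1 on the log2 scale was reached by 277 probe sets (1.74%), of which 147 (0.923%) rose and 130 (0.816%) fell. In 276 of the 277 the sign was the same in all 4 treatments, which held for 6378 (88.9%) of all called probe sets and for 52.9% of all tested. In 200 of the 277 no array of 8 hours overlapped an array of 2 hours, which was so for 738 (4.64%) of all tested, 382 (2.4%) higher and 356 (2.24%) lower. With 1 mean per repeat number and time the count was 2993 (18.8%), 1593 (10.0%) higher and 1400 (8.79%) lower, and 267 of the 277 were among them. With repeat number within time as a random block the count was 4961 (31.2%), with 276 of the 277. With the 3′ to 5′ index as a term all 277 were called. With C.KCl left out of the mean, while its arrays stayed in the fit, 276 were called. The 277 were picked by a mean change of at least 1 over these same arrays. Such a choice favours a common sign, arrays without overlap and calls in the other fits, so these counts are a description. The filter on low signals used the mean of all arrays, and 16 of the 277 reached its signal of 68.9 by their median at only 1 time, the one where they were high. Such a probe set had to differ to be tested, and its change is given as a description. Those named here are AT1G11210, AT1G06830, AT5G62360, AT5G54300, scpl30 and bZIP48.

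**Figure D1:**
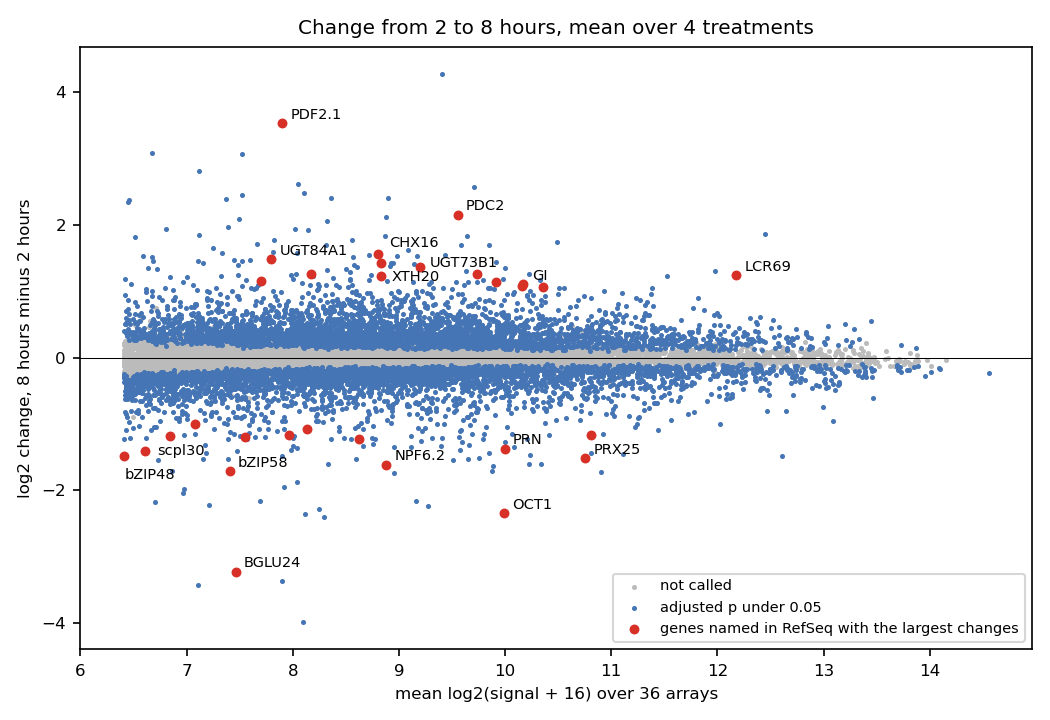
Each point is 1 of 15922 probe sets, with its mean log2(signal + 16) over the 36 arrays on the x axis and its log2 change from 2 to 8 hours, averaged over 4 treatments, on the y axis. Blue marks an adjusted p under 0.05 and red the genes with a RefSeq name and the largest changes, from PDF2.1 at 3.53 to BGLU24 at -3.22. Most called changes lie under 0.5 in size.

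The largest rise of a named gene was that of PDF2.1, a small cysteine-rich protein of the plant defensin family. Its signal was lowest 99.0, median 150 and highest 177 over the 12 arrays of 2 hours, and 1307, 1853 and 2310 over those of 8 hours. Every array of 8 hours lay far above every array of 2 hours, whatever the salt or plate. The change was 3.53 ± 0.11, an 11.6-fold rise on the scale of signal + 16 (SE over 12 arrays per time, adjusted p = 4.10e-22). At 2 days its signals, between 16.5 and 52.5, were below all those of 2 hours. LCR69, another gene of this class of small cysteine-rich proteins, was far brighter. It stood at 3762, 4139 and 6432 (lowest, median, highest) at 2 hours and at 9299, 10539 and 11696 at 8 hours. It rose by 1.25 ± 0.08, and its 2 days arrays lay between 1454 and 2872.

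PDC2, a pyruvate decarboxylase, catalyses the step from pyruvate to acetaldehyde that opens ethanolic fermentation. Its signal was 376, 520 and 603 (lowest, median, highest) at 2 hours and 2006, 2303 and 2688 at 8 hours. No array overlapped, and the arrays of each time stood close together in all treatments. The rise was 2.15 ± 0.09, or 4.44-fold (adjusted p = 3.01e-19), and the 4 treatments gave between 2.07 and 2.21. CHX16, a cation/proton exchanger, went from a median of 355 (200 to 605) to 1062 (655 to 1438), a rise of 1.56 ± 0.12. CHL, the chloroplast lipocalin, a plastid protein that protects lipids under stress, rose by 1.14 ± 0.09, from 95.4 to 233 at 2 hours to 284 to 444 at 8 hours. Neither gene had overlapping arrays.

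FER, or FERONIA, is a receptor-like kinase of the cell surface that binds RALF peptides and takes part in cell growth and wall sensing. Its signals were 709, 817 and 1621 (lowest, median, highest) at 2 hours and 1555, 2017 and 2364 at 8 hours. In each treatment the array of repeat 3 was the highest of 2 hours, between 1011 and 1621, while repeats 1 and 2 lay between 709 and 917. The rise of 1.06 ± 0.12 was called (adjusted p = 8.33e-09, and 0.0102 with 3 means per time), and 11 of the 12 arrays of 8 hours lay above the highest of 2 hours. WLIM1, a LIM protein that bundles actin filaments, rose by 1.11 ± 0.06, from between 633 and 1311 to between 1678 and 2016. ATSIK, a kinase gene, was also highest in repeat 3 at 2 hours, and its arrays ran from 108 to 434 and from 452 to 669, a rise of 1.26 ± 0.16 (adjusted p = 0.0155 with 3 means per time).

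DEWAX, an AP2/ERF factor that represses wax synthesis, and UGT84A1, a glucosyltransferase of hydroxycinnamic acids, rose with more scatter. DEWAX was 133, 370 and 858 (lowest, median, highest) at 2 hours and 420, 961 and 1474 at 8 hours, so that the times overlapped, and its rise was 1.22 ± 0.21 (adjusted p = 2.15e-05, and 0.0333 with 3 means per time). UGT84A1 was 53.8, 114 and 393 at 2 hours against 242, 450 and 671 at 8 hours, a rise of 1.48 ± 0.26 (adjusted p = 3.10e-05, and 0.0290 with 3 means per time). Its repeat 1 arrays of 2 hours, between 279 and 393, were the highest of their treatments.

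Several of the largest rises belong to loci without a RefSeq name. AT1G11210, which passed the filter through its arrays of 8 hours, went from 22.2, 29.7 and 128 (lowest, median, highest) at 2 hours to 324, 445 and 504 at 8 hours, a rise of 3.08 ± 0.17. AT1G56300 went from between 127 and 198 to between 848 and 1200 (2.48 ± 0.09). AT2G38465 went from between 57.9 and 107 to between 371 and 640 (2.38 ± 0.08). At 2 days their medians were 29.8, 108 and 79.9. AT2G23910 rose 5.27-fold, AT1G06830 by 2.34 ± 0.20 on the log2 scale and AT4G16146 by 2.09 ± 0.11. AT1G20030, AT4G34950, AT1G68500, AT5G62360, AT4G30650, AT2G22590 and AT1G47400 complete the 15 largest rises, between 1.64 and 1.96. Of these 7, AT5G62360, AT2G22590 and AT1G47400 had overlapping arrays. The 2 hours arrays of AT2G22590 ran from 562 to 1136 in repeat 1 and from 90.7 to 409 in repeats 2 and 3.

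**Figure D2:**
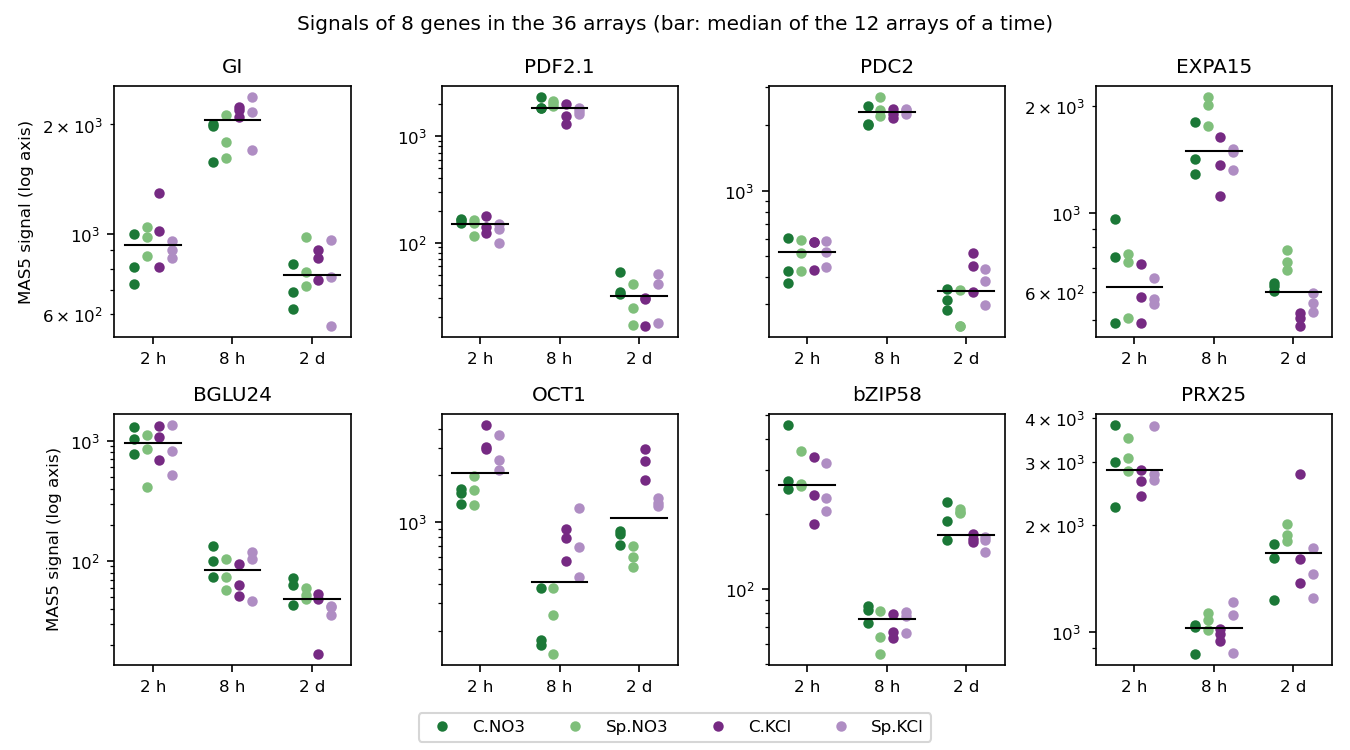
Signals of 8 genes (log axes) in the 12 arrays of each time, coloured by treatment, with a bar at the median. The upper genes rose and the lower genes fell from 2 to 8 hours with no overlap between these times, and PDC2 went from a median of 520 to 2303 and to 344 at 2 days.

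The largest fall of a named gene was that of BGLU24, a beta-glucosidase, an enzyme class that frees compounds stored as glucosides. Its signal was 414, 950 and 1350 (lowest, median, highest) at 2 hours and 46.2, 83.8 and 132 at 8 hours. The arrays of the times were far apart, and at 2 days the signal was lower still, between 17.0 and 71.5. The change was -3.22 ± 0.17, a 9.33-fold fall (adjusted p = 5.59e-16).

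OCT1, an organic cation and carnitine transporter, was 1296, 2062 and 4210 at 2 hours and 142, 408 and 1238 at 8 hours. At both times the KCl arrays were higher than the NO3 arrays, with 2157 to 4210 against 1296 to 1968 at 2 hours and 441 to 1238 against 142 to 376 at 8 hours. The fall was -2.34 ± 0.15 on average, -2.67 and -2.66 in C.NO3 and Sp.NO3 and -2.16 and -1.87 in C.KCl and Sp.KCl. The difference of the falls between the salts, -0.65 ± 0.30, did not pass (adjusted p = 0.853).

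PRX25 (AT2G41480), a class III peroxidase, an enzyme family of the cell wall that uses hydrogen peroxide, fell by 1.51 ± 0.10 on the log2 scale, from 2251, 2844 and 3817 to 867, 1021 and 1211. NPF6.2 (AT2G26690), of the NRT1/PTR family, is known as a low-affinity nitrate transporter of the leaf petiole. It fell from 646, 930 and 1231 to 211, 290 and 410, a change of -1.61 ± 0.11, which was -1.21 in C.NO3 and -1.96 in C.KCl. All 12 arrays of either gene were lower at 8 hours than any at 2 hours.

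Further named genes among the largest falls had various roles. Hop3, a co-chaperone that links HSP70 and HSP90, fell by 1.23 ± 0.12, from a median of 652 (359 to 1003) to 284 (181 to 352). ROF2 (AT5G48570, FKBP65), a peptidyl-prolyl isomerase known from heat stress, fell by 1.17 ± 0.10. PRN, a pirin that binds the G protein alpha subunit, went from 1327, 1768 and 3242 to 552, 722 and 881 (-1.37 ± 0.11). AOR, an oxidoreductase that detoxifies reactive carbonyls, changed by -1.18 ± 0.13, scpl30, a serine carboxypeptidase-like protein, by -1.40 ± 0.11, and NAMT1, a methyltransferase, went from a median of 247 to 127. MGL, which breaks down methionine, fell by 1.08 ± 0.15 with overlapping arrays. Its change was -1.99 in Sp.NO3 and between -0.89 and -0.65 in the other 3 treatments (adjusted p of unequal changes 0.726).

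Among loci without a RefSeq name, AT5G15950 fell from 541, 716 and 1124 to 123, 157 and 204 (-2.17 ± 0.10), and its 2 days arrays, between 969 and 1740, were brighter than its 2 hours median. AT2G23120, one of the brightest, fell from a median of 10170 to 3555 (-1.48 ± 0.08). AT2G38240 (-2.03 ± 0.29), AT5G16010, AT3G16800, AT5G54300, AT2G34930, AT5G19110 and AT4G30450 complete the 15 largest falls. AT2G38240 alone of these 9 had overlapping arrays. In AT2G34930 the repeat 1 arrays of 2 hours, between 451 and 684, stood above those of repeats 2 and 3, between 141 and 257.

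Of the 341 loci entered in lists of clock, stress, nutrient and marker genes, 35 were the sole gene of a probe set and 26 passed the filter, so that few clock genes could be read. GI, or GIGANTEA, a clock-associated protein expressed late in the day, was 727, 929 and 1299 at 2 hours and 1580, 2053 and 2375 at 8 hours. All 12 arrays of 8 hours lay above the highest of 2 hours, and those of 2 days, between 558 and 983, lay in or below the range of 2 hours. GI rose by 1.07 ± 0.08 (adjusted p = 7.69e-12, and 0.000764 with 3 means per time). AT5G52660, a locus without a RefSeq name and the only one tested of those entered as morning genes, differed by -0.21 ± 0.09 (adjusted p = 0.0569). Of those entered as clock outputs, AT1G69570, also without a RefSeq name, fell from between 107 and 194 to between 47.8 and 96.8 (-0.91 ± 0.11), with no overlap. HYH, a bZIP factor related to the light-signalling factor HY5, fell by 0.43 ± 0.08 (adjusted p = 0.0655 with 3 means per time). At 2 days the median of AT1G69570 was 122 against 143 at 2 hours.

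Gene families were gathered by the full names that RefSeq spells out, so that members given by symbol alone, such as UGT84A1 above, are missing, and only members above the filter on low signals were tested. Counts of rises and falls in the main fit stand against 22.7% and 22.4% of all probe sets and a median change of -0.01. Counts from the fit with 1 mean per repeat number and time stand against 10.0% and 8.79%.

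Expansins loosen cell walls in growing cells, and their members moved apart. Of 11 tested, 4 rose, 3 fell and 4 were not called, with a median of -0.05, and 3 rose and 3 fell with 3 means per time. EXPA15 went from 488, 618 and 961 to 1116, 1494 and 2111 (1.26 ± 0.09). EXPB3 went from 646, 868 and 1281 to 1338, 1946 and 2971 (1.13 ± 0.12), and EXPA4 from 796, 1074 and 1290 to 1341, 1864 and 2405 (0.84 ± 0.10). In these 3 genes no arrays overlapped. The root hair expansins EXPA18 and EXPA7 changed the other way, by -0.59 ± 0.08 and -0.50 ± 0.06, with overlap of the times. Their 2 days medians, 1354 and 1437, were above those of 2 hours, 1030 and 1176, whereas EXPA4 and EXPB3 were at medians of 418 and 487 at 2 days, below those of 2 hours.

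Xyloglucan endotransglucosylases showed 1 large rise beside small falls. XTH20 rose by 1.43 ± 0.14, from 240, 352 and 729 to 797, 1029 and 1478, with no overlap. XTH19, XTH16 and EXGT-A3 (XTH27) fell by 0.38 ± 0.10, 0.28 ± 0.08 and 0.26 ± 0.05 on the log2 scale, and their calls were lost with 3 means per time (adjusted p = 0.129, 0.0699 and 0.0502). XTH32 differed by 0.17 ± 0.14 and XTH18 by -0.08 ± 0.11. With these, 1 of 8 members rose, 3 fell and 4 were not called, with a median of -0.07.

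Of the 28 UDP-glycosyltransferases gathered in this way, enzymes that attach sugars to small molecules, 9 rose, 5 fell and 14 were not called (median 0.02). With 3 means per time 6 rose and 2 fell. UGT73B1 rose by 1.36 ± 0.10, from 357, 473 and 668 to 894, 1280 and 1546, and its relative UGT73B5 by 0.64 ± 0.09, from a median of 930 to 1516. The dim UGT85A4 rose by 0.58 ± 0.16, from between 41.7 and 83.9 to between 54.6 and 122. UGT76C1, which glucosylates cytokinins on a ring nitrogen, fell by 0.58 ± 0.09, from a median of 180 to 113. UGT76C2, with the same activity and singled out after its values were seen, rose by 0.34 ± 0.07. UGT78D1, a flavonol rhamnosyltransferase, had a difference of -0.57 ± 0.31 and was not called (adjusted p = 0.140).

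Glutathione transferases of the tau class changed by member. GSTU16 fell by 1.20 ± 0.08, from between 231 and 335 to between 83.6 and 164, GSTU18 by 0.89 ± 0.09 and GSTU27 by 0.52 ± 0.05, each without overlap of the times. GSTU23 rose by 0.44 ± 0.08, from between 208 and 281 to between 319 and 408, also without overlap. Of 12 tested members of the family 2 rose, 3 fell and 7 were not called, with a median of 0.00. Of 10 cytochromes P450, 1 rose and 3 fell, with a median of -0.03. CYP71B37 rose by 0.33 ± 0.07, and CYP71B28 and CYP71B29 fell by 0.50 ± 0.09 and 0.43 ± 0.10. The call of CYP71B29 was lost with 3 means per time (adjusted p = 0.0927).

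Both tested genes of glucosinolate synthesis were lower at 8 hours. UGT74B1, which adds the sulfur-linked glucose, fell by 0.48 ± 0.06, from between 2476 and 3195 to between 1695 and 2249, without overlap. BCAT4, which opens the chain elongation of methionine, fell by 0.60 ± 0.12, from a median of 2919 to 2088, with overlap (adjusted p = 0.000188, and 0.0941 with 3 means per time). The glucosinolate importers GTR1 and GTR2 differed by -0.24 ± 0.11 and 0.11 ± 0.08 and were not called.

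**Figure D3:**
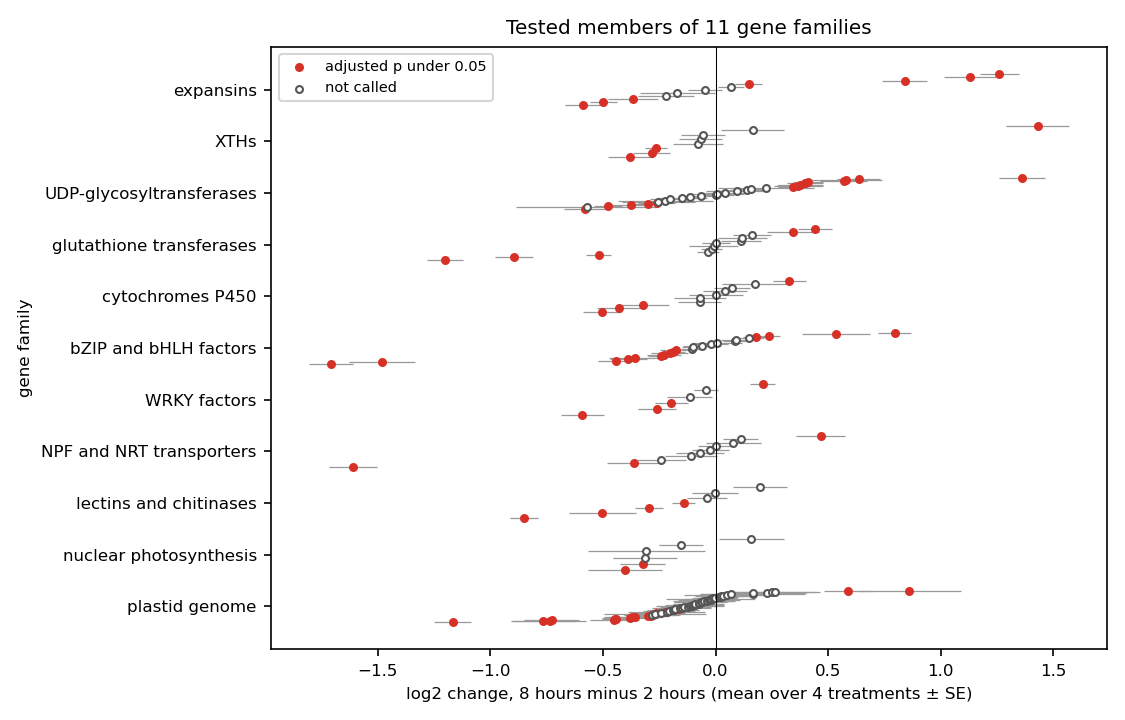
Log2 change from 2 to 8 hours, averaged over 4 treatments, with its SE for the tested members of 11 gene families, including 28 UDP-glycosyltransferases and 59 plastid genes. Filled points passed an adjusted p of 0.05. Expansins lie on both sides of 0, from -0.59 to 1.26, and the bZIP and bHLH factors reach -1.71.

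Among transcription factors, falls outnumbered rises in the bZIP and bHLH list. Of 22 members 4 rose (18.2%), 10 fell (45.5%) and 8 were not called, with a median of -0.10. With 3 means per time 2 rose and 5 fell. bZIP58 went from 182, 260 and 454 at 2 hours to 54.9, 75.2 and 85.3 at 8 hours, a change of -1.71 ± 0.10 (adjusted p = 3.11e-15). bZIP48, which passed the filter through its arrays of 2 hours and so adds no support to the count of falls, went from 139, 212 and 273 to 45.0, 64.2 and 90.7 (-1.48 ± 0.14), and its 2 days signals were between 1.63 and 52.5. BZIP61 moved the other way, from between 166 and 290 to between 315 and 484, a rise of 0.80 ± 0.07. In these 3 genes no arrays overlapped. FD, the bZIP partner of the flowering signal FT, was dim and rose by 0.54 ± 0.15, from a median of 82.7 to 127.

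The MYB list, gathered by full names, held only 2 tested genes, which do not stand for the family, and both fell. MYBC1, known from freezing tolerance, went from between 977 and 1522 to between 545 and 843 (-0.81 ± 0.08), and KUA1 (AT5G47390), a MYB-like factor of cell expansion, changed by -0.53 ± 0.09. Of 6 WRKY factors 1 rose and 3 fell (median -0.16), and with 3 means per time only the fall of WRKY22 was called. WRKY22, an immune-response factor, fell by 0.59 ± 0.10, from a median of 157 to 99.3. Of the 5 auxin-responsive genes GH3.17 and WES1, which conjugate auxin to amino acids, and IAA30 fell, by 0.33 ± 0.06, 0.23 ± 0.07 and 0.29 ± 0.11 on the log2 scale, and IAA18 and IAA33 were not called. With 3 means per time the call of GH3.17 remained (adjusted p = 0.0238). That of IAA30 was lost with the 3′ to 5′ index as a term and with C.KCl left out of the mean (adjusted p = 0.0552 and 0.214).

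The lists of nitrogen, phosphate, iron and jasmonate genes had no tested member. In the early stress list, 1 of 3 tested members was called, WRKY22. STZ, a zinc finger repressor induced by salt and wounding, differed by 0.26 ± 0.15 (adjusted p = 0.150). At 8 hours its repeat 3 arrays read between 537 and 631 in all 4 treatments and those of repeats 1 and 2 between 238 and 336. The dehydrins LTI30 and COR47, among the brightest genes, fell by 0.36 ± 0.06 and 0.25 ± 0.06 from medians of 14007 and 11875, and the call of COR47 was lost with 3 means per time (adjusted p = 0.0741). SIR, the sulfite reductase of sulfate assimilation, rose by 0.26 ± 0.06 (adjusted p = 0.112 with 3 means per time), AT1G04770, a locus of the same list without a RefSeq name, fell by 0.42 ± 0.07, and APS3 was not called. Of the division genes AUR2, an aurora kinase, rose by 0.20 ± 0.08 (adjusted p = 0.218 with 3 means per time), and AUR1 and PRL, a subunit of the replicative helicase, were not called. ARR15 and RR16, negative regulators of cytokinin signalling, were not called either. Of 7 lectins, chitinases and related proteins, 4 fell and none rose (median -0.14, 2 falls with 3 means per time). EULS3, a lectin known from stress responses, went from between 2284 and 3450 to between 1262 and 1856 (-0.85 ± 0.06), without overlap. Of 10 NPF transporters 1 rose and 2 fell. NPF6.2 was described above, NPF4.4 (AT1G33440) rose by 0.47 ± 0.11 and NPF4.3 (AT1G59740) fell by 0.36 ± 0.12 (adjusted p = 0.210 with 3 means per time).

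Genes of the plastid genome, which encode parts of the photosynthetic complexes and of the plastid's own ribosomes and RNA polymerase, were added as a list after the data had been seen. Of 69 with a probe set of their own 59 passed the filter, and 2 (3.39%) rose, 17 (28.8%) fell and 40 were not called, with a median of -0.11. With 3 means per time 1 rose and 6 fell. With the 3′ to 5′ index as a term 2 rose and 12 fell, against 6941 calls in either direction over all 15922 probe sets. With C.KCl left out of the mean 2 rose and 8 fell, against 6339 such calls. Whether plastid genes fell more often than all probe sets was not tested in any of these fits. The index was lower at 8 hours than at 2 hours by the averages given above, and its part in these falls was not tested further. The photosystem I subunit gene psaJ fell by 0.77 ± 0.14, from a median of 2414 to 1502, and psbA, of the photosystem II core, by 0.74 ± 0.16, from 169 to 109. The rises were those of petG, of the cytochrome b6f complex (0.86 ± 0.23, adjusted p = 0.0587 with 3 means per time, and 0.57 with the index as a term, adjusted p = 0.0319), and of rbcL, the large subunit of Rubisco (0.59 ± 0.11), the latter named after its values were seen. Of the 6 nuclear photosynthesis genes PSBW and PSBY fell by 0.40 ± 0.16 and 0.32 ± 0.10, and both calls were lost with 3 means per time (adjusted p = 0.232 and 0.111). With C.KCl left out of the mean the change of PSBW was -0.26 (adjusted p = 0.279).

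The change from 2 to 8 hours was compared between treatments to ask whether nitrate or the split plate altered it. Within a treatment 3 arrays stood against 3. In C.NO3 there were 1966 calls (12.3%), 1047 (6.58%) higher and 919 (5.77%) lower. In Sp.NO3 there were 2632 (16.5%), 1375 (8.64%) higher and 1257 (7.89%) lower. In C.KCl there were 2519 (15.8%), 1242 (7.8%) higher and 1277 (8.02%) lower, and in Sp.KCl 2236 (14.0%), 1246 (7.83%) higher and 990 (6.22%) lower. The call was higher in all 4 for 444 probe sets and lower in all 4 for 342, and 8 probe sets were called in opposite directions in different treatments. Over the probe sets, which do not count as replicates, the changes of different treatments correlated at 0.683 (C.NO3 and C.KCl) to 0.839 (Sp.NO3 and Sp.KCl). Arrays with the same repeat number and time deviated together, and Sp.NO3 and Sp.KCl may share plants. The changes of the treatments are therefore not independent. PDF2.1 and AT1G11210 were among the 3 largest rises and BGLU24 among the 3 largest falls in each treatment. PDF2.1 rose by 3.50 in C.NO3, 3.69 in Sp.NO3, 3.32 in C.KCl and 3.62 in Sp.KCl, and BGLU24 changed by -3.17, -3.03, -3.59 and -3.09 in that order. GI rose by 1.13, 0.92, 1.07 and 1.18. The treatments of these 3 genes thus lay close to each other, but PDF2.1 and BGLU24 had been chosen for large changes of 1 sign in all 4.

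**Figure D4:**
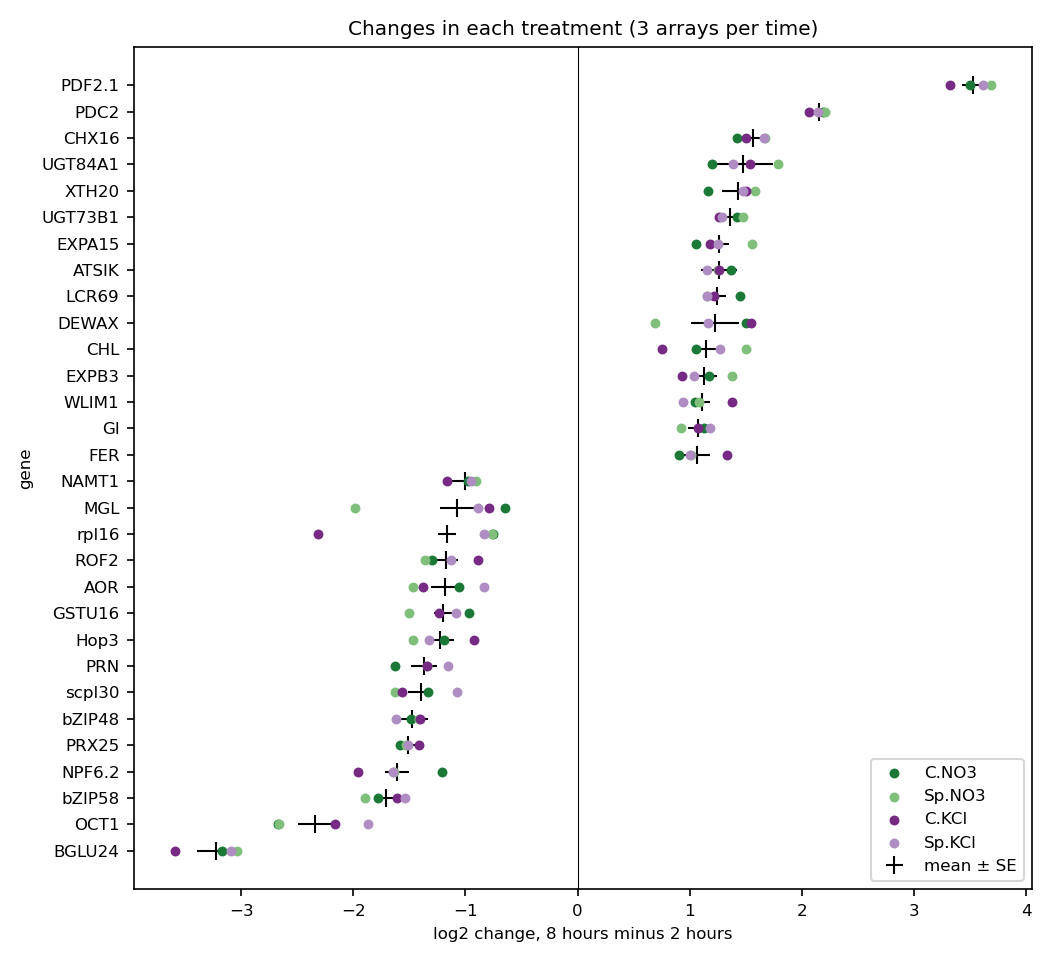
Log2 change from 2 to 8 hours in each treatment (coloured points, 3 arrays per time) and its mean with SE (black) for the 15 rises and 15 falls of largest size among genes with a RefSeq name. Only called genes with the same sign in all 4 treatments were eligible, which favours points that lie together. In most genes the 4 points lie close together, as in PDC2 between 2.07 and 2.21, and rpl16 stands apart in C.KCl at -2.31.

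Few changes differed between treatments past the threshold. The change on nitrate minus the change on chloride was called for 3 probe sets (0.0188%), 1 higher (0.00628%) and 2 lower (0.0126%), by limma, against 908 at an unadjusted p under 0.05 and 43 at p under 0.001 in an ordinary linear model. The change on split minus that on uniform plates was called for 0 (0.0%) by limma, against 625 at an unadjusted p under 0.05 and 12 in the ordinary model. The three-way contrast was called for 0 by limma, against 993 at an unadjusted p under 0.05. By the treatment characteristics of the KCl arrays, the plate and three-way contrasts would trade places. A test of any difference between the 4 changes called 9 (0.0565%), 4 with the 3′ to 5′ index as a term, 4 on the 24 arrays alone and 25 with the random block, against 947 at an unadjusted p under 0.05. Where no change differs, a share of 0.05 of the 15922 probe sets is expected at an unadjusted p under 0.05. At p under 0.001 the expected share is 0.001. These counts do not show that the other changes were equal.

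AT4G32950 changed in opposite directions with the salt. In C.NO3 its signals were 3901, 2539 and 3161 at 2 hours and 1968, 1604 and 2063 at 8 hours, and in Sp.NO3 2715, 2551 and 2659 against 2336, 1794 and 2188. In C.KCl they were 3639, 3508 and 3921 at 2 hours and 6250, 4855 and 4674 at 8 hours, and in Sp.KCl 3334, 3389 and 3103 against 4474, 4498 and 4470. On both nitrate media every array of 8 hours was below, and on both chloride media above, every array of 2 hours. The changes were -0.75 and -0.33 on nitrate (C.NO3, Sp.NO3) and 0.50 and 0.45 on chloride (C.KCl, Sp.KCl). Their salt difference was -1.02 ± 0.12 (adjusted p = 3.95e-05), and the mean over the treatments was -0.03 ± 0.06.

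The other 5 named genes with unequal changes stood apart in the arrays of 2 hours titled as C.KCl. Among the groups of 2 and 8 hours, the 3′ to 5′ index was highest there. The plastid gene rpl16, for a protein of the large ribosomal subunit, read 4909, 5936 and 5088 there and between 1434 and 2674 in the other 9 arrays of 2 hours. At 8 hours all 12 arrays lay between 801 and 1353. Its change was -2.31 in C.KCl and between -0.83 and -0.76 elsewhere (adjusted p = 0.000382 for unequal changes), and without C.KCl the mean fall was -0.78 against -1.17 with it. FRO1 (FROSTBITE1), a subunit of mitochondrial complex I, went the other way, with 2579, 2521 and 2632 in C.KCl at 2 hours against 3309 to 4017 in the other 9 arrays of that time. Its adjusted p for unequal changes was 0.0127. AT1G16560 read between 527 and 719 in these arrays against 892 to 1161, AT4G21720 between 121 and 152 against 202 to 284, and AT1G77770 between 405 and 520 against 543 to 688. At 8 hours the C.KCl arrays of AT1G16560 overlapped or adjoined those of the other treatments (1021 to 1047 against 810 to 1029). With the index as a term the unequal changes of FRO1, AT1G16560, AT4G21720 and AT1G77770 were no longer called (adjusted p = 0.275, 0.142, 0.0689 and 0.811), and those of rpl16 and AT4G32950 were.

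**Figure D5:**
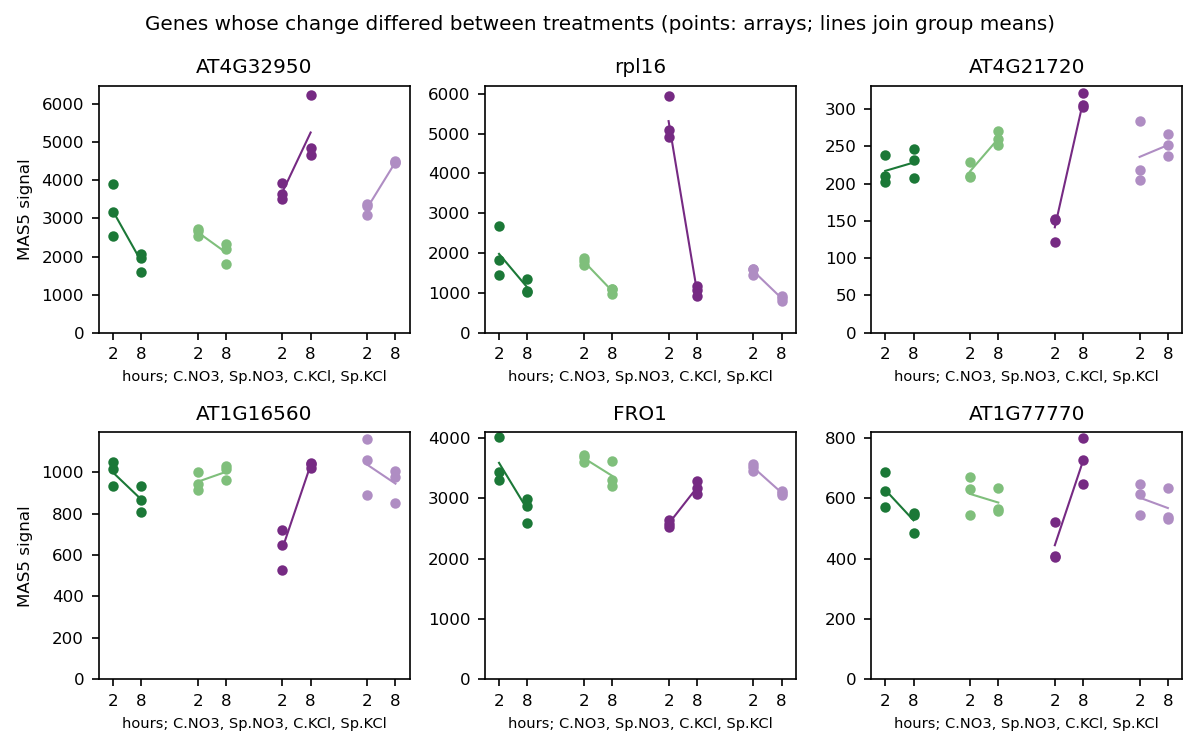
Signals (linear axes from 0) of the 6 named genes whose changes differed between treatments, at 2 and 8 hours in each of the 4 treatments, with a line between group means. AT4G32950 fell on nitrate and rose on chloride, and in the other 5 genes the 3 C.KCl arrays of 2 hours stand apart, as in rpl16 with 4909 to 5936.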

How the data were processed

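The authors deposited intensity values, 1 column per array and 22810 probe sets. Per the submitters' processing notes these are MAS5 signals, and the scaling to a trimmed mean of 500 was read from the values. No other upstream step is stated. After 64 controls were left out, log2(signal + 16) was taken without further normalization, and the dimmest 30% of probe sets by mean (under a signal of 68.9) were dropped. In R 4.3.3, limma 3.58.1 fitted 12 group means to the 36 arrays (eBayes with trend, 24 residual degrees of freedom). P-values were two-sided and adjusted by Benjamini-Hochberg over 15922 probe sets, with a threshold of 0.05. The script was tested on simulated data with independent noise for each array. That test does not cover arrays of the same repeat number that deviate together. The number of arrays limits the precision.

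Same-numbered arrays of 2 and 8 hours were checked for pairing by how far they deviated together from their groups (Pearson's r over probe sets). Every pair exceeded 0.1 in C.NO3 (0.164 to 0.248) and Sp.KCl (0.127 to 0.330), not in Sp.NO3 (-0.126 to 0.224) or C.KCl (0.0604 to 0.260), so that the mean change was left unpaired. The fit with the number as a block across the times changed no count of calls by over 1.5 times in C.NO3 or Sp.KCl.

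By the platform's annotation, 13513 probe sets have 1 gene, 503 have several and 8794 have none listed. Of the tested, 8792 had 1 gene and 1343 also a RefSeq name (TAIR10.1). Genes named are the 15 largest rises and falls with 1 sign in all treatments, with and, as a rule added later, among those with a RefSeq name. From each of 47 gene lists, 36 with a tested member, up to 4 called and 2 other members are named. For each treatment the 3 largest rises and falls, and for interactions the 5 of smallest p, were considered. Members and lists were chosen with earlier results of these data known.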

Additional observations from a re-analysis of the deposited data

Results flagged for a closer look

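The change from 2 to 8 hours differed between treatments in 6 genes that could be named, each by a test of the difference itself in limma. AT4G32950 fell on nitrate and rose on chloride, with a salt difference of -1.017 (adjusted p = 0.0002075 for any difference between the 4 treatments), and in each treatment no array of 8 hours overlapped one of 2 hours. For rpl16 the adjusted p of unequal changes was 0.0003822, with a fall of -2.31 in C.KCl against -0.83 to -0.76 elsewhere. AT4G21720 (0.001768), AT1G16560 (0.002148), FRO1 (0.01272) and AT1G77770 (0.03661) changed by 1.06, 0.71, 0.30 and 0.69 in C.KCl and by -0.35 to 0.25 in the other treatments. In these 5 genes the C.KCl arrays of 2 hours stand apart, where the 3′ to 5′ index averaged 1.07 against 0.769 to 0.875 in the other treatments of that time. Its part in the other differences was not tested beyond the fit with the index as a term.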

How the results depend on the processing

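Of the mean changes of 170 named genes, 5944 of 6236 values under the alternatives kept their direction and side of the threshold, 189 lost the call and 103 gained it, and none reversed. All 853 values within single treatments were kept. They belong to 24 results chosen as the largest called changes of a treatment, which favours keeping the call. The counts of calls within treatments, given below, did move. Of 396 values of interactions of named genes 351 were kept, 24 lost the call and 21 gained it. Exchanging C.KCl and Sp.KCl exchanges their counts, 2519 and 2236, and left the counts of the salt, plate and any interaction as they were. The count of 7177 became 4091 by an ordinary linear model at p under 0.001, 2993 with 1 mean per repeat number and time, 277 with a change of at least 1 and 738 by arrays that do not overlap, and 6697 to 7335 without 1 replicate. At p under 0.001 the treatments gave 1047 calls in C.NO3, 1273 in C.KCl, 1349 in Sp.NO3 and 1141 in Sp.KCl. Without 1 replicate C.NO3 ranged from 1127 (without C.NO3 2 hours replicate 1) to 2377, Sp.NO3 from 1715 (without Sp.NO3 8 hours replicate 1) to 2742, C.KCl from 1649 (without C.KCl 2 hours replicate 2) to 2679 and Sp.KCl from 1324 (without Sp.KCl 2 hours replicate 2) to 2374. In C.NO3 it was 1284 without 8 hours replicate 2, and in Sp.KCl 1448 without 8 hours replicate 1. The salt interaction gave 6 calls with the dimmer 50% left out, 5 with the replicate number as a block across the times, 13 with the random replicate block, 43 by the ordinary model and 3 to 6 without 1 replicate. The plate interaction gave 12 and 0 to 1. Any interaction gave 4 on 24 arrays, 4 with the index, 25 with the random block, 53 by the ordinary model and 6 to 12 without 1 replicate. With the replicate block across the times the mean change gave 7759 calls, with 2693 in C.NO3, 3221 in C.KCl, 3312 in Sp.NO3 and 2868 in Sp.KCl. Why these counts moved was not tested, except that the size limit adds a condition and 3 means use fewer values by construction. Genes near the filter, such as bZIP48, have low signals, and no detection calls were used.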

Other observations

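Single genes of several smaller lists also passed the threshold from 2 to 8 hours, over 12 arrays per time. PES, the pescadillo factor of ribosome assembly, rose by 0.32 ± 0.04 on the log2 scale, from 2371, 2642 and 3054 (lowest, median, highest) to 2713, 3312 and 3853, and 11 of the 12 arrays of 8 hours lay above the highest of 2 hours. Of 4 tested pentatricopeptide proteins, which act in organelle gene expression, 3 rose, 0 fell and 1 was not called, with changes between -0.16 and 0.47. With 3 means per time 1 of these rises was still called. PPR336 and PPR596 rose by 0.36 ± 0.07 and 0.36 ± 0.08 on that scale, and their calls were lost with 3 means per time (adjusted p = 0.0715 and 0.0956, limma). Hsp70-2, a cytosolic chaperone, rose by 0.44 ± 0.10, from a median of 722 to 934, while the co-chaperone Hop3 fell. With 3 means per time the call of Hsp70-2 was lost (adjusted p = 0.0876, limma).

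Among peroxidases PRX25 fell and Prx37 rose by 0.29 ± 0.06 (adjusted p = 0.0975 with 3 means per time, limma). PRX71 (AT5G64120) differed by -0.41 ± 0.18 and PRX72 (AT5G66390) by 0.14 ± 0.06, and neither was called. HON4, named by RefSeq with histone H1, rose by 0.33 ± 0.07 (adjusted p = 0.0747 with 3 means per time, limma), and the core histone gene HTB2 and the centromeric histone HTR12 were not called. Of 7 calmodulin-like and related calcium-binding proteins 1 rose, 1 fell and 5 were not called, and 0 were called with 3 means per time. The fall was that of CML43, a calmodulin-like protein, by 0.30 ± 0.12 (adjusted p = 0.190 with 3 means per time, limma), and CML38 was not called. The loci AT3G25790, AT1G25550 and AT1G68670, which RefSeq leaves unnamed and which belong to no list but were chosen from earlier results of these data, changed by 0.41 ± 0.09, 0.32 ± 0.08 and -0.33 ± 0.07, and with 3 means per time none of these calls was kept (adjusted p = 0.0628, 0.113 and 0.0604, limma).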
